A study of Homo sapiens with 2 samples.

Results

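The 9 genes described here encode ATF4, 2 regulators downstream of it, and 6 enzymes that make asparagine, serine and one-carbon units. They are ATF4, DDIT3, TRIB3, ASNS, PHGDH, PSAT1, PSPH, SHMT2 and MTHFD2. They were chosen by gene symbol, and all 9 were found among the 11619 genes listed in both libraries. NB4 is a cell line from acute promyelocytic leukemia (APL), in which the PML and RARα genes are fused. The NB4 cells were infected with lentivirus carrying an shRNA against the long non-coding RNA CRNDE (sh-CRNDE) or a non-targeting shRNA (sh-Control), and total RNA was taken on day 3. Each group was 1 library, so the differences below could not be set against replicate spread and carry no p-value. The pLVX-shRNA2 vector marks infected cells with ZsGreen1, and the study made 2 CRNDE shRNAs without saying which one the sequenced cells carried.

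ATF4 is a bZIP transcription factor of the integrated stress response. Kinases that sense amino acid shortage, unfolded protein, double-stranded RNA or low heme phosphorylate the translation factor eIF2. General translation then falls while ATF4 mRNA, through its upstream open reading frames, is translated more, so that much of ATF4 control lies beyond the mRNA level measured here. ATF4 in turn activates genes for amino acid synthesis, uptake and tRNA charging. Among these are the serine synthesis enzymes, which draw on glycolysis, and the mitochondrial folate enzymes that turn serine into formate for nucleotide synthesis.

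The targeted RNA was lower in the knockdown library. CRNDE was at 5.92 FPKM under sh-Control and 1.85 under sh-CRNDE, where FPKM is a count of fragments scaled to transcript length and library size. Changes are given as log2(FPKM + 1) in sh-CRNDE less that in sh-Control, and a gene is said to have risen or fallen only where its change was past 1.5-fold, 0.585 on that scale. By this rule 17.2% of all listed genes were called, 8.38% higher and 8.83% lower. Of the 8773 genes that reached 1 FPKM in each library, 14.1% were called, 6.67% higher and 7.45% lower. Of 6 promyelocyte markers 5 were listed, none at 0, with a summed level of 1404 FPKM under sh-Control and 814 under sh-CRNDE. MPO, PRTN3, AZU1 and CTSG fell, CD33 was not past the threshold, and ELANE was not analysed here. Of 6 markers of other cell types, EPCAM was at 4.82 FPKM under sh-Control and 4.49 under sh-CRNDE, and CD79A at 1.017 and 0.256 FPKM. HBB, HBA1, CD3E and COL1A1 were not among the listed genes. The part of the marker changes in the results below was not tested. Depth is unknown, because FPKM values keep no counts.

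Of the 9 genes, 1 fell and 0 rose past 1.5-fold, beside the 8.38% higher and 8.83% lower of all genes. All 9 reached 1 FPKM in each library, where 6.67% were higher and 7.45% lower. MTHFD2 was the gene that fell. With 0.1 in place of 1 added to FPKM, 2 of the 9 rose, DDIT3 and PSPH. On that scale 802 of the 8773 genes that reached 1 FPKM in each library were higher and 940 lower. In RNA from a whole culture, fewer cells of a kind and less RNA per cell cannot be told apart. The median change of the 9 genes was 0.10, and that of all listed genes was -0.01. The change was above 0 for 5 genes (ATF4, DDIT3, TRIB3, ASNS and PSPH) and below 0 for 4 (PHGDH, PSAT1, SHMT2 and MTHFD2). Over all 11619 listed genes it was above 0 for 5713 and below 0 for 5906. Set out by role, the ATF4 arm and ASNS lay above 0, the serine synthesis enzymes on both sides, and the mitochondrial folate enzymes below 0. Apart from MTHFD2 none of these changes was past the threshold, and the signs of PHGDH and PSAT1 depended on the scale.

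**Figure D1:**
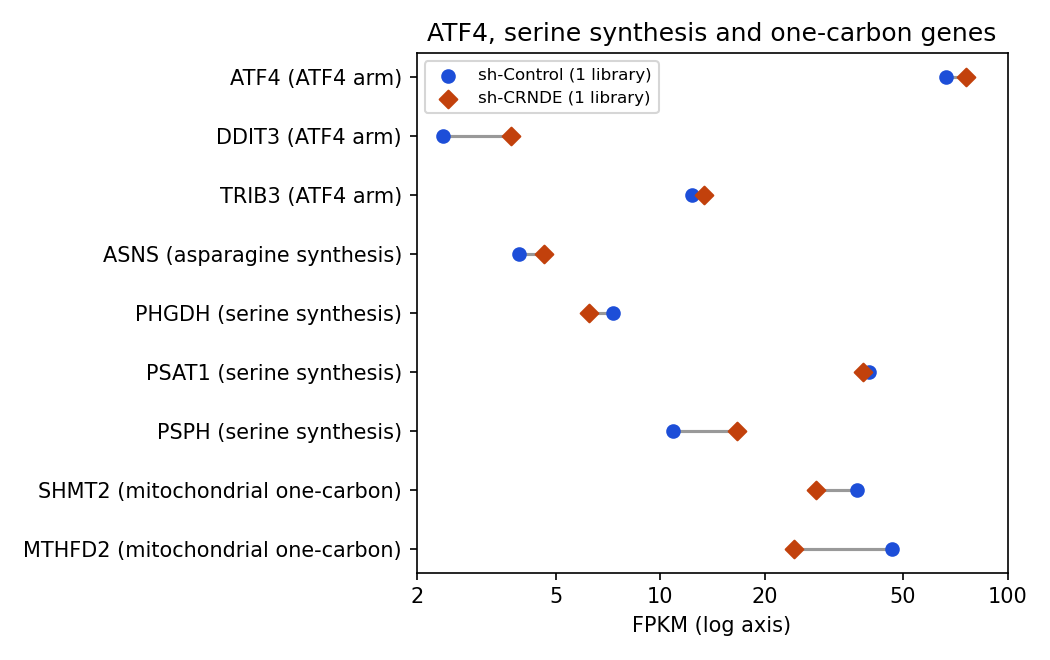
FPKM (log axis) of each of the 9 genes in the sh-Control library (circles) and the sh-CRNDE library (diamonds), 1 library per group and so without error bars. The widest gap is that of MTHFD2, from 46.5 to 24.3 FPKM, and the points of PSAT1 (39.9 and 38.5 FPKM) nearly touch.

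ATF4 itself (chromosome 22, 39519695 to 39522683, plus strand, GRCh38) was the most abundant of the 9 genes. Its level was 66.4 FPKM under sh-Control and 75.8 under sh-CRNDE, a change of 0.19 and well inside the threshold. In sh-Control 97.2% of listed genes had a lower level. Over all listed genes, 60.3% changed by at least as much as ATF4 in either direction. Of 4 annotated pseudogenes of ATF4, 0 were among the listed genes.

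DDIT3 (chromosome 12, 57516588 to 57521737, minus strand) encodes CHOP, a bZIP factor that ATF4 induces under lasting stress and that promotes cell death. It had the lowest level of the 9 genes, 2.37 FPKM under sh-Control and 3.73 under sh-CRNDE. The change was 0.49, not past the threshold. The plain ratio of the FPKM values was 1.58, and with a pseudocount of 0.1 the change was 0.64 and past it. The DDIT3 exons share 355 of 1307 bases with the exons of MARS and 58 with those of MBD6, which lie on the other strand, and the TruSeq RNA v2 kit does not mark strand. MARS, for methionyl-tRNA synthetase, was at 25.3 FPKM under sh-Control and 17.1 under sh-CRNDE. MBD6 fell from 4.34 to 2.30 FPKM. How reads of the shared bases were split among these genes was not tested.

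TRIB3 (chromosome 20, 362835 to 397559, plus strand) encodes a pseudokinase that ATF4 and CHOP induce and that restrains AKT and ATF4 in turn. Its level was 12.4 FPKM under sh-Control and 13.3 under sh-CRNDE, a change of 0.10. Of all listed genes, 78.2% changed by at least as much. Centred on genes alike in GC content, its change was 0.32. The canonical TRIB3 transcript is 61.5% G and C, the highest share among the 9 genes. So centred, ATF4, DDIT3, PHGDH (to -0.02) and SHMT2 (to -0.24) also moved up. ASNS, PSAT1, PSPH and MTHFD2, whose transcripts have lower shares of G and C, moved down. The part of GC content in these changes was not tested.

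ASNS (chromosome 7, 97851677 to 97872542, minus strand) encodes asparagine synthetase, the enzyme whose lack makes leukemic cells sensitive to asparaginase. It was at 3.92 FPKM under sh-Control and 4.64 under sh-CRNDE, a change of 0.20. Its level was close to the middle of all genes, with 49.8% of listed genes lower in sh-Control. Its exons share 2415 of 4896 bases with a lncRNA on the same strand that was not among the listed genes.

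ASNS is the textbook ATF4 target with a nutrient-sensing element in its promoter, so the sequence around it is shown beside those of the called pathway genes that hold the same letters. The letters searched were TGATGNAA, the composite element that ATF4 binds with a C/EBP partner, on both strands, in 300-base windows from RefSeq (GRCh38.p14) that run from 250 bases before a gene's start to 50 after it. The choice of motif was made after the values were seen. Each 30-base stretch reads 5′ to 3′ on the strand of its gene, with the match in capitals.
ASNS: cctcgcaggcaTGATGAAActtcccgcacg
CEBPG: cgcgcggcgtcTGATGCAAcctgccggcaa
PPP1R15B: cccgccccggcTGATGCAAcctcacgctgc
SLC1A4: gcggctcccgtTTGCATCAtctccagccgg
AARS: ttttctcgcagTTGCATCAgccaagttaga
The stretches lie at chr7:97872458-97872487 (ASNS), chr19:33374060-33374089 (CEBPG), chr1:204412026-204412055 (PPP1R15B), chr2:64989381-64989410 (SLC1A4) and chr16:70289675-70289704 (AARS). The ASNS match takes bases 183 to 190 of its 300-base window. In the canonical GENCODE transcripts the SLC1A4 stretch reaches into exon 1 by 12 bases, the CEBPG stretch lies in an intron, and the others lie outside the exons. Of the 9 genes, 7 had a promoter window (SHMT2 and PSPH did not), and 1 of the 7, ASNS, held the letters. In the pathway lists described below 17 of 60 genes with a window held them, 28.3%, and of all 27305 genes with a window 4.46%. Several of these lists were made up of known ATF4 targets, so a higher share there is not a finding of these data. A match is a description of the sequence and not a site of binding. Sequence outside the windows was not searched, so a gene without a match may hold the letters elsewhere. CEBPG, PPP1R15B, SLC1A4 and AARS were shown because they were called, so that they changed was fixed by the choice. Of the 17 genes of the pathway lists that held the letters, 4 were called, where 17.2% of all listed genes were. Among the 5 genes shown, the changes went both ways. AARS rose, as did CEBPG from a value under 1 FPKM in sh-Control, and SLC1A4 fell. PPP1R15B was listed at 0 in sh-CRNDE, and ASNS was not past the threshold.

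The 3 enzymes of serine synthesis act in a row, and the changes of their mRNAs lay on both sides of 0, none past the threshold. PHGDH (chromosome 1, 119648411 to 119744218), which encodes the first and committed enzyme, was at 7.31 FPKM under sh-Control and 6.24 under sh-CRNDE, a change of -0.20. PSAT1 (chromosome 9, 78297125 to 78330093), for the transaminase that follows, was at 39.9 FPKM under sh-Control and 38.5 under sh-CRNDE, a change of -0.05. Of all listed genes, 89.1% changed by at least as much as PSAT1, the smallest change of the 9 genes. PSPH (chromosome 7, 56011051 to 56051604, minus strand), for the phosphatase of the last step, was at 10.9 FPKM under sh-Control and 16.6 under sh-CRNDE. Its change of 0.57 was just inside the threshold, and the plain ratio of its FPKM values was 1.53.

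The summed FPKM of the 3 serine synthesis genes was 58.1 in sh-Control and 61.3 in sh-CRNDE, a change of 0.08. PSAT1 stood above PHGDH in both libraries, 5.46 times in sh-Control and 6.17 times in sh-CRNDE. PSPH stood 1.49 times above PHGDH in sh-Control and 2.66 times in sh-CRNDE. PSPH has a partial copy on the same chromosome, PSPHP1, which was listed at 5.19 FPKM under sh-Control and 4.34 under sh-CRNDE. Reads of one can be assigned to the other. The summed FPKM of PSPH and PSPHP1 was 16.1 in sh-Control and 20.9 in sh-CRNDE, a change of 0.36, which is smaller than that of PSPH alone.

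Both genes of the mitochondrial folate pathway were lower in sh-CRNDE, and MTHFD2 fell. SHMT2 (chromosome 12, 57229573 to 57234935), which encodes the mitochondrial serine hydroxymethyltransferase that passes a carbon unit from serine to folate, was at 36.8 FPKM under sh-Control and 28.1 under sh-CRNDE. Its change was -0.38, not past the threshold, and 17.2% of all listed genes had a lower change. MTHFD2 (chromosome 2, 74186172 to 74217565), which encodes the dehydrogenase and cyclohydrolase of the next steps, is known for high expression in embryos and tumors and low expression in most adult tissue. It fell from 46.5 FPKM under sh-Control to 24.3 under sh-CRNDE, by 0.91 on the log2 scale and to 0.523 of its control level. A lower change was found in 3.80% of all listed genes, and in 2.83% of those that reached 1 FPKM in each library. With 8 other pseudocounts or scalings, its change was between -1.04 and -0.65, past 1.5-fold each time. On the scale used here it was not past 2-fold. The summed FPKM of SHMT2 and MTHFD2 was 83.3 under sh-Control and 52.4 under sh-CRNDE, a ratio of 0.630.

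The order of the levels changed around MTHFD2. FPKM is per length, so levels can be set side by side between genes. In sh-Control the order was ATF4, MTHFD2, PSAT1, SHMT2, TRIB3, PSPH, PHGDH, ASNS and DDIT3. In sh-CRNDE MTHFD2 stood in place 4, after PSAT1 and SHMT2, and PSPH passed TRIB3. With 1 library per group, no spread was at hand to say which neighbours in the order differ. The ratio of MTHFD2 to SHMT2 was 1.26 in sh-Control and 0.865 in sh-CRNDE. MTHFD2 has 7 annotated pseudogenes, of which 0 were among the listed genes, and its exons share 1324 of 11443 bases with SLC4A5 on the other strand, which was not among the listed genes either.

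**Figure D2:**
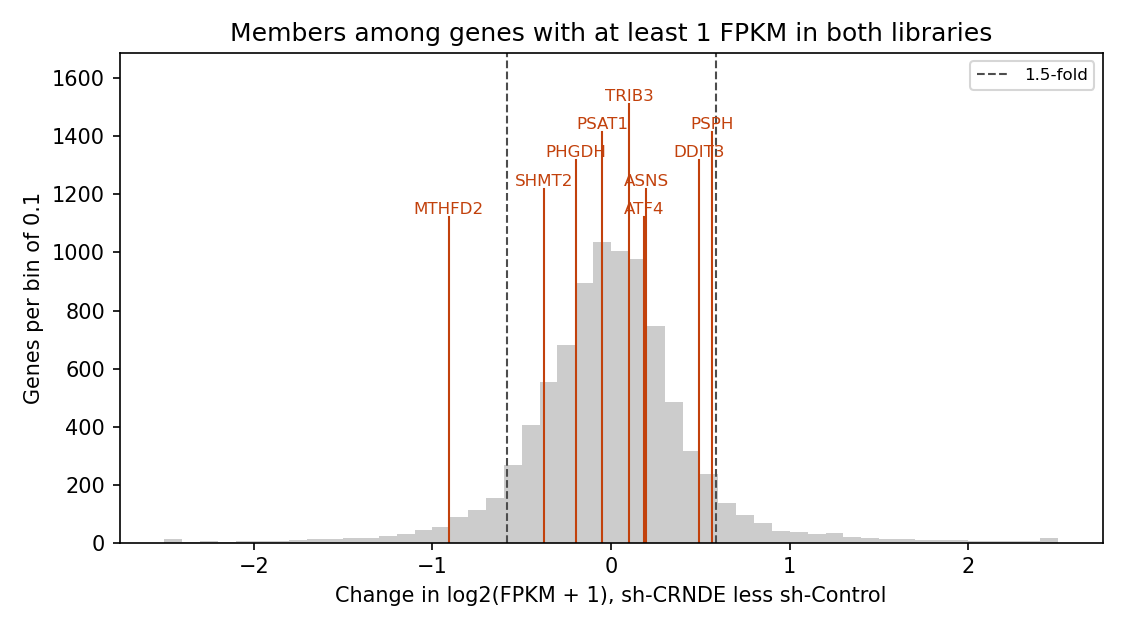
Histogram of the change in log2(FPKM + 1), sh-CRNDE less sh-Control, over the 8773 genes that reached 1 FPKM in each library, with changes beyond 2.5 in either direction put in the outermost bins, the 9 genes as vertical lines and 1.5-fold as dashed lines. MTHFD2 (-0.91) is outside the dashed lines, PSPH (0.57) and DDIT3 (0.49) are just inside the upper one, and the other 6 genes lie between -0.38 and 0.20.

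The paralogs of the folate enzymes were all inside the threshold. MTHFD2L, the other mitochondrial enzyme of the same step, was at 0.798 FPKM under sh-Control and 0.675 under sh-CRNDE, so that MTHFD2 stood 58.2 and 36.0 times above it. MTHFD1, the trifunctional enzyme of the cytosol, was at 22.4 FPKM under sh-Control and 24.0 under sh-CRNDE, a change of 0.10. The level of MTHFD2 was 2.07 times that of MTHFD1 in sh-Control and 1.01 times in sh-CRNDE. MTHFD1L, which makes formate in the mitochondria after MTHFD2, was at 9.13 and 9.36 FPKM, a change of 0.03. SHMT1, the cytosolic counterpart of SHMT2, was at 3.60 FPKM under sh-Control and 2.61 under sh-CRNDE. SHMT2 stood 10.2 times above SHMT1 in sh-Control and 10.8 times in sh-CRNDE.

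Of 23 other folate and one-carbon genes, 18 were among the listed genes, with 1 higher and 1 lower past 1.5-fold and a median change of 0.01. Over all listed genes 8.38% were higher and 8.83% lower. SLC19A1, the reduced folate carrier of the cell surface through which methotrexate also enters, fell from 8.58 to 3.43 FPKM, a change of -1.11. GCSH, the H protein of the glycine cleavage system, rose from 6.01 to 21.8 FPKM, a change of 1.70. It has 6 annotated pseudogenes that can share its reads, and 1 of them, GCSHP5, rose from 12.8 to 21.0 FPKM. The sum of GCSH and GCSHP5 went from 18.8 to 42.8 FPKM, so the value of GCSH alone is uncertain. The mitochondrial carriers for serine, SFXN1, and for folate, SLC25A32, were at 6.79 and 6.08 FPKM in sh-Control and 5.23 and 6.47 FPKM in sh-CRNDE. ALDH1L1, ALDH1L2, GLDC, AMT and SLC46A1 were not analysed here. No other gene of the list was past 1.5-fold. Of 8 listed genes that use serine in other ways, among them the SPTLC1 and SPTLC2 subunits that start sphingolipid synthesis, 0 were past 1.5-fold. In either direction, 17.2% of all listed genes were past it.

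Upstream of ATF4, all 4 eIF2 kinases were above 1 FPKM and inside the threshold. EIF2AK1, which senses heme, had the highest level of the 4, at 37.3 FPKM under sh-Control and 38.7 under sh-CRNDE. EIF2AK2, the double-stranded RNA kinase PKR, was at 11.6 and 13.7 FPKM. EIF2AK4, the amino acid sensor GCN2, was at 9.84 and 12.4 FPKM, and EIF2AK3, the endoplasmic reticulum kinase PERK, at 2.28 and 2.60 FPKM. Their changes ran from 0.05 to 0.31. EIF2S1, the eIF2 subunit that the kinases phosphorylate, was at 31.4 FPKM under sh-Control and 36.6 under sh-CRNDE.

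The 2 genes of this list that were called were the phosphatase subunits that undo the phosphorylation. PPP1R15A, the stress-induced subunit GADD34, fell from 4.39 to 2.57 FPKM, a change of -0.594. It was not past 1.5-fold after quantile normalization (-0.558), nor when centred on GAPDH, on genes alike in mean expression or on genes alike in GC content (-0.413). PPP1R15B, the constitutive subunit CReP, had 16.97 FPKM under sh-Control and a listed value of 0 under sh-CRNDE. Of 55 annotated genes listed at 0 in one library and at 5 FPKM or more in the other, 52 have a single exon. PPP1R15B has 2. No fold is given for it, since no ratio can be formed with a value of 0. Whether this 0 is a failed estimate was not tested. Of 16 genes of the eIF2 pathway, 14 were not past the threshold, and the median change was 0.15. Both called genes were lower, where 8.83% of all listed genes were lower and 8.38% higher. Among the 14, EIF2B3 (0.57) and EIF2B1 (0.55) were just inside the upper threshold.

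Among other ATF4 targets and partners, 14 of 20 were listed, 2 rose, 0 fell and 10 of the 14 changes were below 0. Over all 11619 listed genes 8.38% were higher, 8.83% were lower and 5906 changes were below 0. Both genes that rose were under 1 FPKM in sh-Control, and 0 rose when genes under 1 FPKM in a library were left out. With 0.1 in place of 1 added to FPKM, 2 rose and 5 fell. The 5 include ATF3, VLDLR and CTH, each under 1 FPKM in sh-CRNDE. On that scale 802 of the 8773 genes that reached 1 FPKM in each library were higher and 940 lower, against 585 and 654. CEBPG, a C/EBP partner of ATF4 at amino acid response elements, was at 0.477 FPKM under sh-Control and 12.4 under sh-CRNDE, a change of 3.19. Its sh-Control value was under 1 FPKM, so the size of its change is uncertain. CEBPB, another partner and a single-exon gene, had a listed value of 0 under sh-Control and 2.34 FPKM under sh-CRNDE. ATF5 was at 7.81 FPKM under sh-Control and 6.36 under sh-CRNDE. ATF3, an early stress factor, was at 0.562 and 0.0617 FPKM, and SESN2, an inhibitor of mTORC1 signalling, at 1.56 and 1.64 FPKM. CHAC1, NUPR1, GDF15, STC2, CBS and ALDH1L2 were not analysed here. The amino acid enzymes ALDH18A1 (-0.58) and GPT2 (-0.58), for proline and alanine metabolism, were just inside the threshold.

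Of 7 listed amino acid transporters 2 fell and 0 rose, 6 of the changes were below 0, and the median change was -0.16. Over all 11619 listed genes 8.83% were lower, 8.38% were higher and 5906 changes were below 0. SLC7A5, the light chain of the LAT1 exchanger for leucine and other large neutral amino acids, fell from 111.3 to 22.9 FPKM, a change of -2.24. Its 2 annotated pseudogenes were not among the listed genes. Of all listed genes 0.620% had a lower change. Its heavy chain SLC3A2 was at 24.2 FPKM under sh-Control and 24.4 under sh-CRNDE. The level of SLC7A5 was thus 4.61 times that of SLC3A2 in sh-Control and 0.935 times in sh-CRNDE. SLC1A4, a carrier of serine and alanine, fell from 5.14 to 1.995 FPKM, a change of -1.03. The cystine carrier SLC7A11 was at 3.19 and 2.92 FPKM. Of 12 tRNA synthetase genes that respond to ATF4, 1 rose, AARS, from 17.4 to 28.6 FPKM, and 10 changes were above 0. Above 0 over all listed genes were 5713 changes.

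Over the 6 lists together, without the 9 genes, 4 genes rose and 5 fell of 73 listed, and the median change was 0.02. The 4 include CEBPB and the 5 include PPP1R15B, each listed at 0 in a library. The 4 also include CEBPG, under 1 FPKM in sh-Control. Over all listed genes 8.38% were higher and 8.83% lower.

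The directions of PHGDH and PSAT1 depended on the scale. Against GAPDH, the gene with which the study normalized its qRT-PCR data and which was at 942 FPKM under sh-Control and 785 under sh-CRNDE, PHGDH was at 0.06 and PSAT1 at 0.21. This scale moves the median of genes that reached 1 FPKM in each library to 0.26, and turns 585 higher and 654 lower genes into 1469 higher and 294 lower. Both values are below that median. For the other 7 genes the sign was the same with all 9 pseudocounts and scalings.

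**Figure D3:**
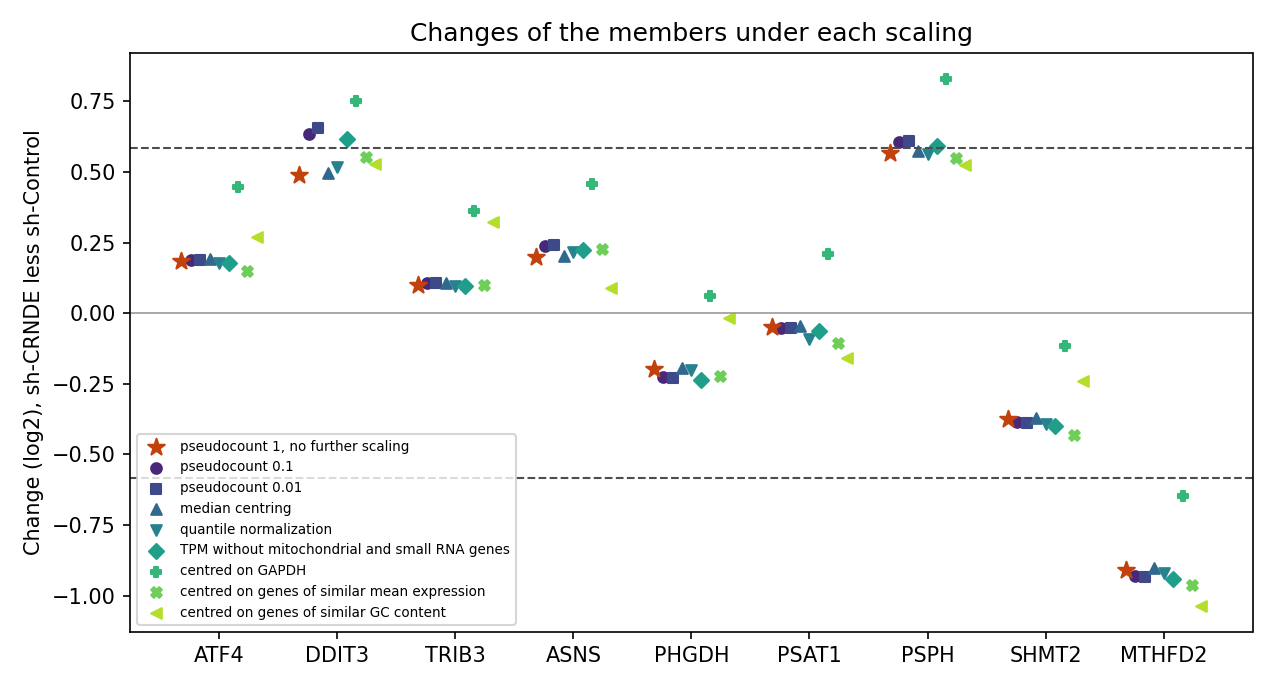
Change (log2) of each of the 9 genes, sh-CRNDE less sh-Control, under 9 pseudocounts and scalings, with the values used in the text as stars and 1.5-fold as dashed lines. MTHFD2 is below the lower line each time, between -1.04 and -0.65, while DDIT3 (0.49 to 0.75) and PSPH (0.53 to 0.83) lie on both sides of the upper one.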

How the data were processed

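The authors deposited FPKM values per gene, 1 file for each of 2 libraries. The submitters' processing notes name fastp 0.20.0, HISAT2 2.0.4, StringTie 1.2.3 and GRCh38, and the annotation release is not given in the sources used here. Library preparation used the TruSeq RNA v2 kit, and sequencing an Illumina MiSeq. Both files list the same genes, each above 0.5 FPKM in at least one library, so genes were matched by Ensembl identifier. The low values do not keep read counts and no counting interval could be given.

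The change of a gene was log2(FPKM + 1) in sh-CRNDE less that in sh-Control, with all genes kept, and was called past 1.5-fold. The study also used a fold change above 1.5, but whether a value was added to FPKM is not stated in the sources used here. On plain ratios of FPKM, DDIT3 (1.58) and PSPH (1.53) are past 1.5-fold, and MTHFD2 (0.523) remains past it in the other direction. With 1 library per group no test was run. The members and gene lists were chosen with earlier results of these data known. Named are all members, CRNDE, GAPDH, marker genes, overlapping genes, a fixed set of pathway genes and list genes past 1.5-fold or at 0 in a library. GCSHP5, SPTLC1, SPTLC2, ALDH18A1, GPT2, EIF2B1 and EIF2B3 were named after their values were seen. Coordinates, exons, overlaps and GC content come from GENCODE release 44 (GRCh38), in which 11508 identifiers matched. The calculation was tested on simulated data. Python 3.11.15, numpy 2.4.6, pandas 2.3.3 and matplotlib 3.10.9 were used.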

Additional observations from a re-analysis of the deposited data

How the results depend on the processing

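The alternatives were other pseudocounts, other scalings, a filter on low values and other thresholds. The count of the 9 genes that rose was 2 (DDIT3 and PSPH) with a pseudocount of 0.1 or 0.01, after rescaling to TPM (mitochondrial genes, rRNA and small RNAs left out), after centring on GAPDH, and at a lower threshold of 0.322 on the log2 scale. The count that fell was 0 at 2-fold and 2 at the lower threshold. Over the 9 genes the median was 0.11 with either pseudocount and after median centring, 0.0946 after rescaling to TPM, 0.0877 after centring on genes alike in GC content, and 0.36 after centring on GAPDH. In the 6 pathway lists together, 11 genes fell with either pseudocount and after rescaling to TPM, against 5 in the text. The count that rose was 7 with a pseudocount of 0.01, 9 after centring on GAPDH, and 2 when genes under 1 FPKM in a library were left out, against 4. At the lower threshold 9 rose and 16 fell. With a pseudocount of 0.1 the genes past 1.5-fold came to include ATF3 (-2.03), VLDLR (-1.16) and CTH (-0.74). Of the 8773 genes that reached 1 FPKM in each library, 585 were higher and 654 lower on the scale of the text. These counts were 802 and 940 with a pseudocount of 0.1, 829 and 985 with 0.01, and 753 and 944 after rescaling to TPM. No called change of the 9 genes or of the lists turned direction. Of the single-gene changes under these alternatives 44 came to pass the threshold and 4 dropped inside it, all 4 of them PPP1R15A. PHGDH and PSAT1, not called, turned above 0 after centring on GAPDH. No paired analysis was possible because each group has 1 library, and for the same reason no library could be left out. The depth is unknown, so no limit from counting error can be given for the low values of DDIT3 and ASNS.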
